A study of Homo sapiens with 3 samples.

Results

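The ETS transcription factors EHF, ELF3, ELF1, ELF4, ETS1, ETS2, ETV1, ETV4, ETV5 and ELK3 were followed in human fibroblasts after knockdown of the histone methyltransferase SETD8. These 10 genes, of 19775 on the array, were found by gene symbol and had 33 of the 54613 probe sets. EHF was chosen on its high signal with both SETD8 siRNAs, in the same comparisons described here, and the others were chosen by family with earlier results of these arrays known. Their values are therefore a description, and no test is given. IMR-90 cells, a line of fetal lung fibroblasts, were transfected for 24 h with SETD8 siRNA 1 (labelled SETD8-1), SETD8 siRNA 2 (SETD8-2) or a control siRNA (GL3). The labels' protocols describe all 3 cultures alike, in DMEM-F12 with 10% serum, with RNAiMAX as the transfection reagent. Each siRNA had 1 array of total RNA, so no value has a replicate error, and the number of arrays limits the precision. The comparisons of the SETD8 siRNAs share the control array. The labels do not give the siRNA sequences.

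ETS factors share a winged helix-turn-helix DNA-binding domain that reads a GGAA core. The family divides by how its members are used. EHF and ELF3 belong to the epithelium-specific branch and act in differentiating epithelia. ETV1, ETV4 and ETV5 form the PEA3 group, whose genes and proteins respond to FGF and MAP kinase signalling. ETS1 and ETS2 are activated when ERK phosphorylates a site beside their pointed domain, and ELK3 is a ternary complex factor that binds beside SRF. ELF1 and ELF4 are broadly expressed, with known roles in blood cells and in interferon induction.

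The windows around annotated start sites, 250 bases before and 50 after, are shown for EHF, whose signal differed most among these genes, for ELF3, its closest relative here, and for ETV1 and ETS2, which were higher with SETD8 siRNA 1. Capitals mark GGAA or its complement TTCC. Sequences are from RefSeq on GRCh38.p14, which held windows for 7 of the 10 genes, and each is written 5′ to 3′ on the strand of its gene. The EHF windows lie at chr11:34624007-34624306 and chr11:34632316-34632615 on the plus strand, the ELF3 window at chr1:202010337-202010636 on the plus strand, the ETV1 window, 1 of 6, at chr7:13991376-13991675 on the minus strand and the ETS2 window, 1 of 2, at chr21:38804933-38805232 on the plus strand.
EHF, upstream start: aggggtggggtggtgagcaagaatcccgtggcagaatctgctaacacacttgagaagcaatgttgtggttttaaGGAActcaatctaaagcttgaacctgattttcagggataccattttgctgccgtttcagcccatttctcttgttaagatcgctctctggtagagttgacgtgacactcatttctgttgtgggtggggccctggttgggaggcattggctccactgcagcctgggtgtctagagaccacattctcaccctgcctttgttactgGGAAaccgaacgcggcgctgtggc
EHF, downstream start: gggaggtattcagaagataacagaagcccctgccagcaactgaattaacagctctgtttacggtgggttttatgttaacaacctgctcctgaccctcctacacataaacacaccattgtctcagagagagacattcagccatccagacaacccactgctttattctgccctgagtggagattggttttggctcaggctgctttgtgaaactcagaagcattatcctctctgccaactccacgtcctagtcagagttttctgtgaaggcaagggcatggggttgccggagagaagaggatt
ELF3: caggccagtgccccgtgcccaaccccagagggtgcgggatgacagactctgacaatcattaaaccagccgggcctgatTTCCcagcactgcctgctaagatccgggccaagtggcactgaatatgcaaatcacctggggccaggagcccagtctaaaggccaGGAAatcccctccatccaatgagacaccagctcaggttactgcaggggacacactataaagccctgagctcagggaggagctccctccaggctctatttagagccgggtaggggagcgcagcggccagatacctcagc
ETV1: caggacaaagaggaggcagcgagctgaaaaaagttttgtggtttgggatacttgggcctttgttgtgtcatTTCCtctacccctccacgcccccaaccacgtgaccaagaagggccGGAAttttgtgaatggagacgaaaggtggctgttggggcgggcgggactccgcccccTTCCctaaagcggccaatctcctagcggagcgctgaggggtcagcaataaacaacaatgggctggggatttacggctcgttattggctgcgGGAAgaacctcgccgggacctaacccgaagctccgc
ETS2: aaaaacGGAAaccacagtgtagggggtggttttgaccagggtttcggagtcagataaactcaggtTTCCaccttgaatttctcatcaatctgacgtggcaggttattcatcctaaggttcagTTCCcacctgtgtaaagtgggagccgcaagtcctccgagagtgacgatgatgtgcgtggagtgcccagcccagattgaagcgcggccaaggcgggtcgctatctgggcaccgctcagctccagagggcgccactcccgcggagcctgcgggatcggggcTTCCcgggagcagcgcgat

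The upstream EHF window held 2 GGAA cores on either strand and the downstream window held 0, where 95.5% of all 35116 RefSeq windows held at least 1. The ELF3 window held 2, this ETV1 window 4 and this ETS2 window 4. Other motifs were searched on both strands: CCGGAAGT, an extended ETS site that contains the core (4.1% of all windows), TGANTCA, the AP-1 site (7.7%), the interferon-stimulated response element, which can overlap a core (3.6%), the CArG box read by SRF (1.3%) and the NF-kappaB site, which can hold a core (11.3%). Neither EHF window held any of these. The ELF3 window had 1 NF-kappaB match on the minus strand, starting 88 bases upstream of the start site, and this ETS2 window had 1 on the plus strand, 26 bases downstream. Among all 19 windows of the members, the AP-1 match occurred in 1, an ELF4 window not printed here. These matches describe letters in a short window.

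KMT5A, the current symbol of SETD8, was looked at as a check of the labels. Its 4 probe sets had 45.9% to 74.7% of the control signal with SETD8 siRNA 1 and 62.2% to 86.3% with SETD8 siRNA 2. Fibroblast markers were bright on all 3 arrays. COL1A1 had a signal of 36638.9 with SETD8 siRNA 1, 34357.1 with SETD8 siRNA 2 and 33451.1 with the control siRNA. Signals are MAS5 values on a linear scale, with a median of 45.3, 44.9 and 46.2 on the same arrays. Signals under 11.7, the 25th percentile of all values, were raised to that floor before log2 was taken. A gene was represented by its brightest probe set and compared if its mean log2 signal reached the median of all probe sets (a signal of 42.0). This left 12307 genes, among them 9 of the 10 members, and EHF passed only through its high signals with the SETD8 siRNAs. In place of a replicate error, a yardstick was taken from genes of like signal: the size in log2 units that 95% of them stayed under when the arrays of SETD8 siRNA 1 and SETD8 siRNA 2 were set against each other. It was 2.21 in the lowest signal quartile, then 1.72, 1.25 and 1.14 in the highest. KMT5A had log2 fold changes of -1.12 with SETD8 siRNA 1 and -0.68 with SETD8 siRNA 2 on its brightest probe set. Both lay within its yardstick of 1.72, and the knockdown is seen only as a shared direction of its 4 probe sets. Those were read from the same RNA and are not replicates. The yardstick also contains any real difference between the SETD8 siRNAs. It is therefore no measure of error, and a change within it is not shown to be absent.

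EHF stood far above the control with both SETD8 siRNAs on 1 probe set, 225645_at. There it had a signal of 4156.5 with SETD8 siRNA 1, 596.9 with SETD8 siRNA 2 and 13.9 with the control siRNA. These signals exceeded 95.2%, 80.3% and 27.5% of the probe sets on their arrays, so the control value lay among the dim probe sets, just above the floor. The log2 fold change was 8.22 with SETD8 siRNA 1 and 5.42 with SETD8 siRNA 2. Since EHF was chosen on these values, their place beyond the yardstick of 1.72 was fixed in advance and is no test. Because the control is so dim, the size of these values depends on how low signals are handled: with 16 added to every signal in place of the floor they were 7.12 and 4.36. SETD8 siRNA 1 gave 6.96 times the EHF signal of SETD8 siRNA 2. In a bulk culture, a change in the share of cells that express a gene and a change in RNA per cell cannot be told apart.

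The other 5 EHF probe sets were much dimmer and shared the direction with SETD8 siRNA 1 more than with SETD8 siRNA 2. Probe set 219850_s_at had 122.5 with SETD8 siRNA 1, 17.3 with SETD8 siRNA 2 and 10.4 with the control. Probe set 224189_x_at had 88.1, 13.9 and 1.5 on the same arrays. With the control under the floor, these were at least 10.5-fold and 7.53-fold higher with SETD8 siRNA 1, and at least 1.48-fold and 1.19-fold with SETD8 siRNA 2. Probe set 232360_at had 59.3 with SETD8 siRNA 1, 40.1 with SETD8 siRNA 2 and 3.6 with the control, or at least 5.07-fold and 3.43-fold higher. Probe set 232361_s_at had 60.2, 1.9 and 1.4, so it was above the floor with SETD8 siRNA 1 alone. Probe set 222932_at had 49.2 with SETD8 siRNA 1, 12.3 with SETD8 siRNA 2 and 27.0 with the control, lower with SETD8 siRNA 2. In all, 6 of 6 EHF probe sets were above the control with SETD8 siRNA 1 and 5 of 6 with SETD8 siRNA 2, counting 232361_s_at, which was under the floor there on both arrays. Averaged over the 6, the log2 fold changes were 3.35 and 1.15, and the mean signal then missed the filter.

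ELF3, the other epithelial member, gave no measurable direction. Its 3 probe sets were dim on every array, all under 42.0, so ELF3 was not among the genes compared and its values may be background. The probe set with the highest mean had a signal of 21.9 with SETD8 siRNA 1, 28.1 with SETD8 siRNA 2 and 41.1 with the control siRNA. The others had 24.1, 18.9 and 34.7, and 3.4, 10.8 and 26.4, on the same arrays. On that probe set the log2 fold changes were -0.91 and -0.55. All 3 listed signals were below the control with both SETD8 siRNAs, but at such low signals no direction is drawn for ELF3, and it is not set against EHF.

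**Figure D1:**
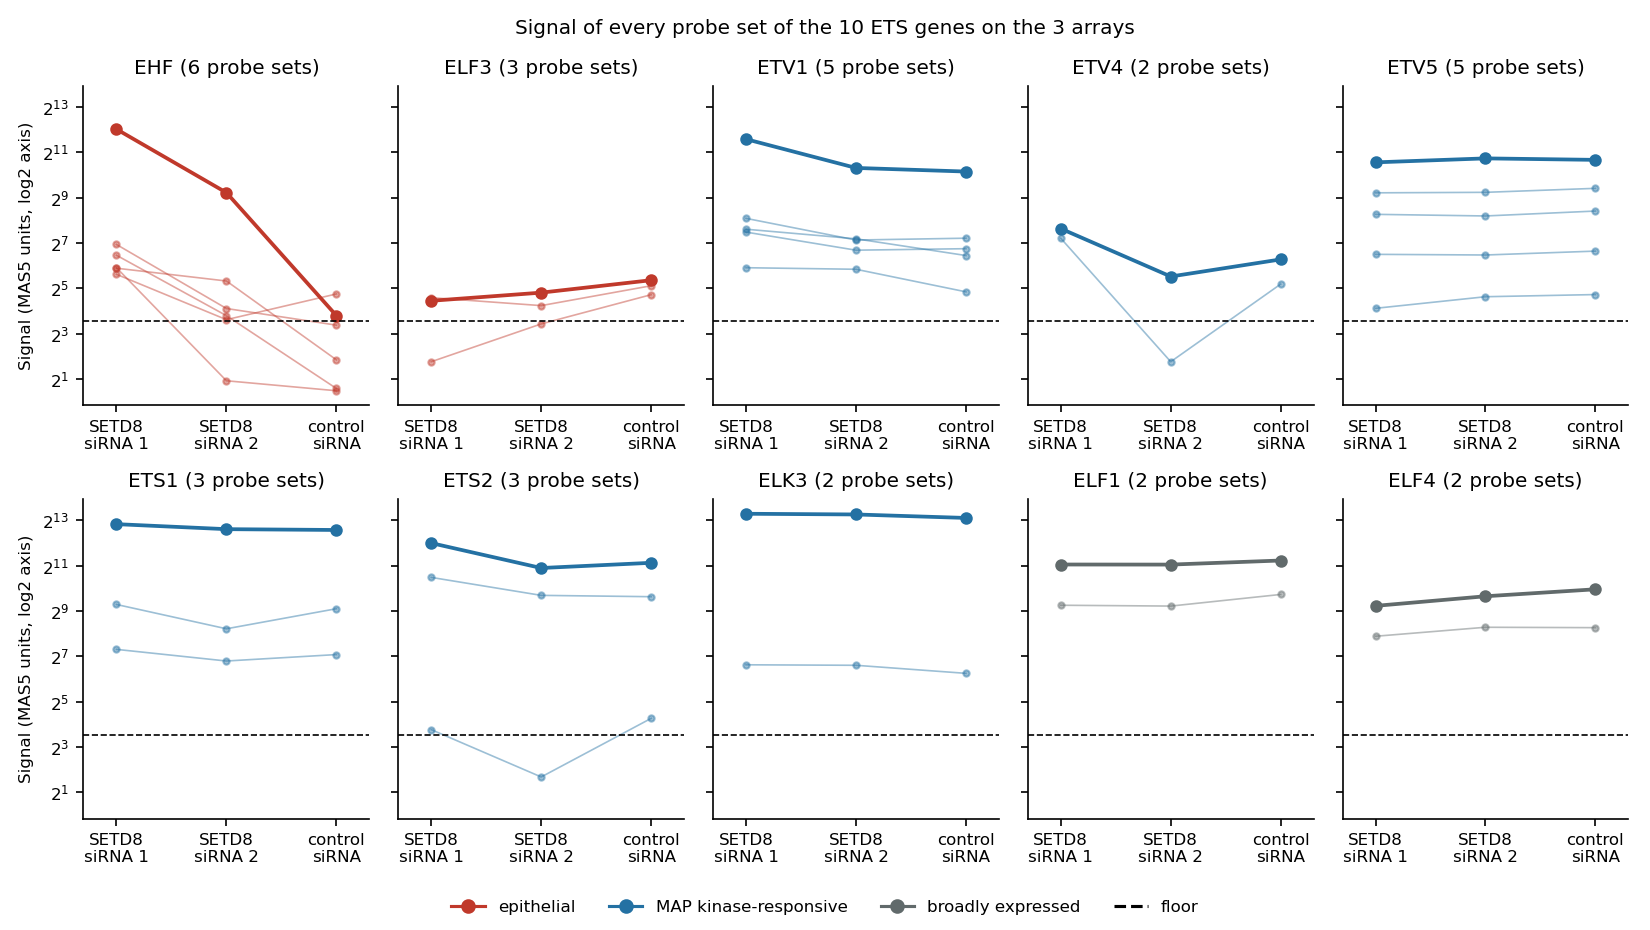
Signal of each of the 33 probe sets of the 10 ETS genes on a log2 axis, in MAS5 units, for SETD8 siRNA 1, SETD8 siRNA 2 and the control siRNA. Each line is 1 probe set, the heavy line represents the gene, and the dashed line is the floor of 11.7. The heavy EHF line spans 13.9 to 4156.5, ETV1, ETV4 and ETS2 are highest with SETD8 siRNA 1, and ETV5, ETS1, ELK3 and ELF1 are nearly level.

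The MAP kinase-responsive members divided. ETV1, a PEA3 group activator, was higher with SETD8 siRNA 1 on all 5 probe sets. Its brightest had a signal of 3064.8 with SETD8 siRNA 1, 1271.6 with SETD8 siRNA 2 and 1138.5 with the control, log2 fold changes of 1.43 and 0.16. With SETD8 siRNA 1 the change exceeded the yardstick of 1.25, and with SETD8 siRNA 2 it did not. The other 4 probe sets had log2 fold changes of 0.73 to 1.16 with SETD8 siRNA 1 and of -0.08 to 0.99 with SETD8 siRNA 2.

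ETV4 parted the siRNAs. This PEA3 factor had a signal of 199.0 with SETD8 siRNA 1, 46.0 with SETD8 siRNA 2 and 77.6 with the control, log2 fold changes of 1.36 and -0.75. Its other probe set had 148.2, 3.4 and 36.5, in the same order. On both probe sets the control lay between the SETD8 siRNAs, but the changes were within the yardstick of 2.21 for such dim genes. Both probe sets carry a suffix of probe sets that may bind more than 1 transcript.

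ETV5, the third PEA3 gene, stayed close to the control. Its brightest probe set had a signal of 1508.0 with SETD8 siRNA 1, 1702.3 with SETD8 siRNA 2 and 1627.1 with the control, log2 fold changes of -0.11 and 0.07. All 5 probe sets were slightly lower with SETD8 siRNA 1, and 4 of 5 with SETD8 siRNA 2.

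ETS2 was higher with SETD8 siRNA 1, by less than ETV1, and close to the control with SETD8 siRNA 2. Its brightest probe set had a signal of 4075.0 with SETD8 siRNA 1, 1901.8 with SETD8 siRNA 2 and 2229.8 with the control (log2 fold changes of 0.87 and -0.23). The next had 1427.7, 824.2 and 791.3 (0.85 and 0.06). Both were over 1.5-fold and under 2-fold with SETD8 siRNA 1. The remaining probe set was under 42.0 on every array and ran the other way (-0.50 and -0.71), so the average over the 3 was 0.41 with SETD8 siRNA 1.

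ETS1 had a signal of 7269.1 with SETD8 siRNA 1, 6235.9 with SETD8 siRNA 2 and 6082.1 with the control on its brightest probe set (0.26 and 0.04 on the log2 scale). Its other probe sets were also a little higher with SETD8 siRNA 1 (0.19 and 0.23) but lower with SETD8 siRNA 2 (-0.89 and -0.28), so the sign for SETD8 siRNA 2 depends on the probe set and turned to -0.38 when they were averaged. ELK3, which represses SRF targets until it is phosphorylated, had 9985.7 with SETD8 siRNA 1, 9774.2 with SETD8 siRNA 2 and 8787.6 with the control (0.18 and 0.15). Both of its probe sets were slightly higher with both siRNAs. Neither ETS1 nor ELK3 left the yardstick of 1.14.

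The broadly expressed members were a little lower. ELF1 had a signal of 2116.6 with SETD8 siRNA 1, 2111.4 with SETD8 siRNA 2 and 2392.4 with the control, a log2 fold change of -0.18 with each siRNA, and its dimmer probe set gave -0.48 and -0.51. ELF4, a known activator of interferon genes, had 598.0 with SETD8 siRNA 1, 802.1 with SETD8 siRNA 2 and 992.3 with the control (-0.73 and -0.31). Its other probe set had 236.1, 310.8 and 307.1 (-0.38 and 0.02). Neither gene reached 2-fold or the yardstick.

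Of the 9 members compared, SETD8 siRNA 1 had 3 that reached 2-fold above the control (EHF, ETV1 and ETV4) and 0 below it, where 5.48% of all genes were higher and 7.75% lower. With SETD8 siRNA 2, 1 was higher (EHF) and 0 lower, beside 4.46% and 6.65% of all genes. With both siRNAs, 1 was higher and 0 lower, beside 1.5% and 3.23% of all genes. Since EHF was chosen on these comparisons and passed the filter through them, nothing is read from these shares. The median log2 fold change of the 9 was 0.26 with SETD8 siRNA 1 and 0.04 with SETD8 siRNA 2, against -0.02 and -0.01 over all genes. The median of the 6 MAP kinase-responsive genes was 0.56 and 0.05, and the 2 broadly expressed genes lay at -0.73 and -0.18 with SETD8 siRNA 1 and at -0.31 and -0.18 with SETD8 siRNA 2. Apart from EHF, whose place was fixed by its choice, only ETV1 exceeded the yardstick with SETD8 siRNA 1, and no member did with SETD8 siRNA 2. SETD8 siRNA 1 gave the higher value for 7 of the 9 members, and for 50.2% of all genes. The 7 include EHF, chosen on these values, and ELF1 and ELK3, where the SETD8 siRNAs were nearly level, so nothing is read from this count.

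The rest of the ETS family comprised 18 genes, of which 17 were on the array and 11 were compared. SPDEF, an ETS factor of secretory epithelia, was the 1 gene of the 11 at least 2-fold higher with both SETD8 siRNAs, beside 1.5% of all genes. It had a signal of 101.6 with SETD8 siRNA 1, 123.6 with SETD8 siRNA 2 and 46.7 with the control (1.12 and 1.40). Its 5 probe sets disagreed. On the next brightest it had 92.9, 51.7 and 118.1, and on another 14.1, 6.9 and 58.9, while 213442_x_at, under 42.0 on every array, had 31.8, 6.6 and 9.8. The values past 2-fold with both siRNAs rest on 1 dim probe set and lay within the yardstick of 2.21. No other family gene among those compared was higher by 2-fold with either siRNA.

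ERF and ETV3, ETS repressors, were higher on their brightest probe sets with both siRNAs. ERF had a signal of 601.0 with SETD8 siRNA 1, 435.0 with SETD8 siRNA 2 and 308.0 with the control (0.96 and 0.50), while its dim second probe set ran the other way (-0.75 and -2.13). ETV3 had 1912.5 with SETD8 siRNA 1, 1648.8 with SETD8 siRNA 2 and 1149.0 with the control (0.74 and 0.52), and all 3 of its probe sets were higher with both. ETV6, a repressor needed in blood formation, was higher on all 5 probe sets with both siRNAs at a smaller size (0.38 and 0.34 on the brightest).

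ELF2, the near relative of ELF1 and ELF4, was the 1 family gene compared that was at least 2-fold lower, with SETD8 siRNA 2, beside 6.65% of all genes. It had a signal of 1008.6 with SETD8 siRNA 1, 544.5 with SETD8 siRNA 2 and 1112.3 with the control (-0.14 and -1.03), and its 3 probe sets were all lower with both siRNAs. This call sits at the threshold, within the yardstick of 1.25, and was under 2-fold with median scaling, quantile normalization or probe sets averaged. The remaining genes had small log2 fold changes: GABPA 0.13 and -0.24, FLI1 -0.08 and -0.27, ELK1 0.18 and -0.14, ELK4 0.35 and -0.01, ETV2 0.24 and -0.06, and ETV7 -0.42 and 0.09, with SETD8 siRNA 1 given before SETD8 siRNA 2. The endothelial ERG, the blood factors SPI1, SPIB and SPIC, the neuronal FEV and the epithelial ELF5 were too dim to be compared. The median of the 11 was 0.24 with SETD8 siRNA 1 and -0.01 with SETD8 siRNA 2.

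**Figure D2:**
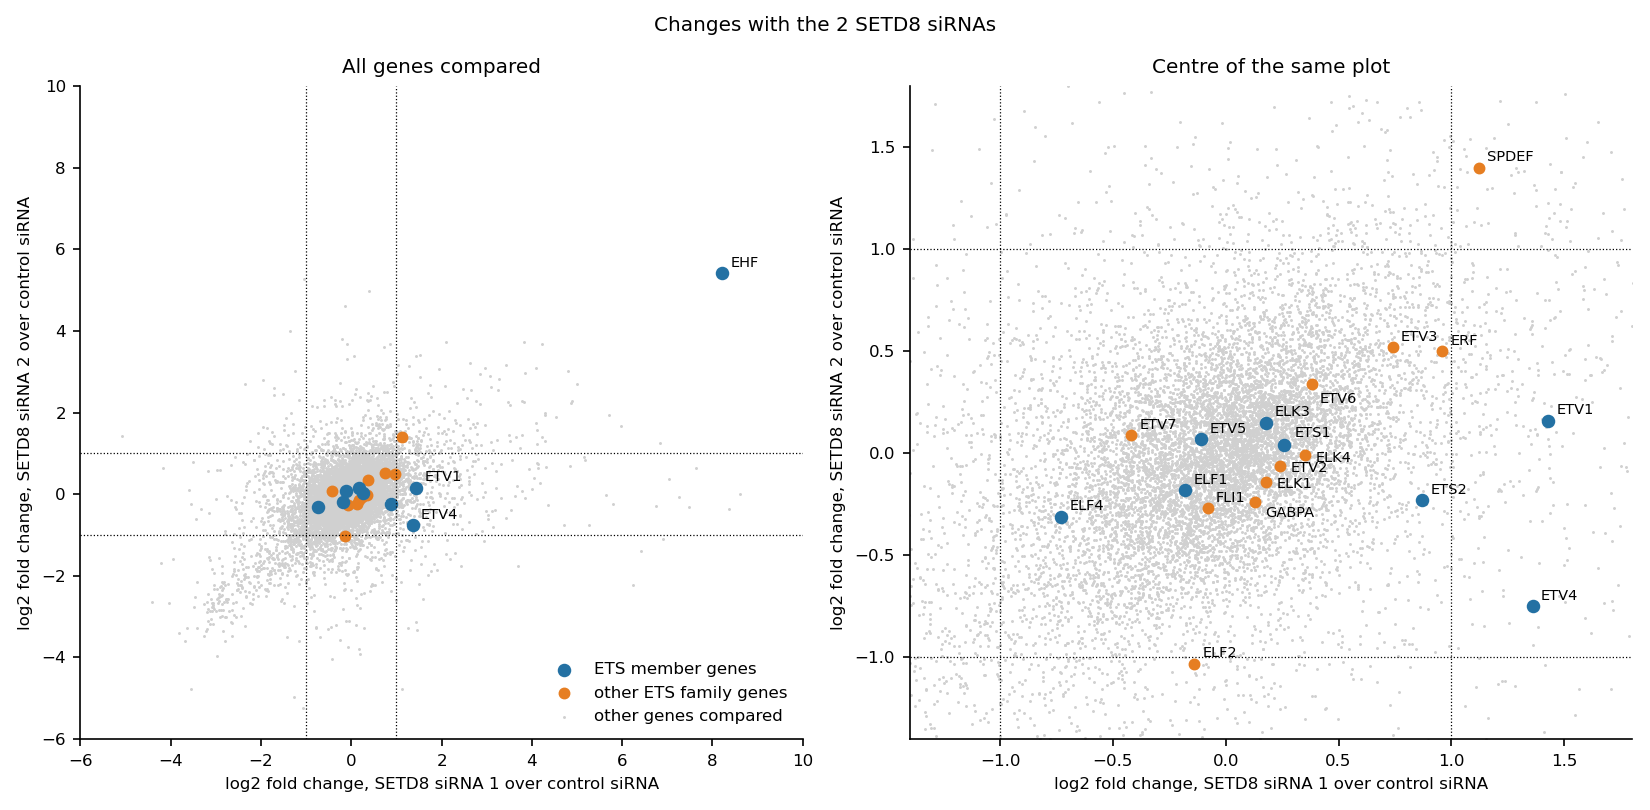
Log2 fold change over the control siRNA with SETD8 siRNA 1 (horizontal) and SETD8 siRNA 2 (vertical) for 12307 genes, in full (left) and around the centre (right). Blue points are 9 ETS member genes, orange points 11 other ETS family genes, and dotted lines mark 2-fold. EHF lies apart at 8.22 and 5.42, ETV1 and ETV4 lie right of the 2-fold line, and the axes share the control array.

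The genes whose pair of changes lay nearest to that of EHF, on the log2(signal + 16) scale over the 3 arrays, were COXFA4L3, C11orf96, MIR146A, DUSP4 and EGR3. None was close, with distances of 3.0 to 3.65 log2 units. DUSP4, an ERK phosphatase, had a signal of 1444.6 with SETD8 siRNA 1, 236.4 with SETD8 siRNA 2 and 48.5 with the control. EGR3, an immediate early factor, had 1289.2, 209.6 and 44.5. Like EHF, both were highest with SETD8 siRNA 1 and between with SETD8 siRNA 2. They were picked for changes near those of EHF, so this shared order is no separate result. The probe set annotated to MIR146A, the gene of an NF-kappaB-induced microRNA, had 1339.6, 28.0 and 2.0. It was under 42.0 with SETD8 siRNA 2 and with the control. MIR146A therefore passed the filter only through its signal with SETD8 siRNA 1, and had to differ there. Nearest to ELF3 were PPP2R5E, XPO6, CDKN2AIP, PLS1 and AUNIP, all within 0.02 log2 units, in the dense centre of the distribution.

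Genes that act with EHF and ELF3 in epithelia differed among themselves. Of 16 epithelial regulators, 13 were on the array and 7 were compared. By the 2-fold rule, 2 were above and 2 below the control with SETD8 siRNA 1, beside 5.48% and 7.75% of all genes. SETD8 siRNA 2 had 1 and 0, beside 4.46% and 6.65%, and these counts are too small to read against the shares. The 1 gene higher with SETD8 siRNA 2 was SPDEF (1.12 and 1.40), also among the 2 higher with SETD8 siRNA 1. It was already counted with the ETS family, where its probe sets disagreed. TFAP2C had a signal of 815.0 with SETD8 siRNA 1, 436.2 with SETD8 siRNA 2 and 253.8 with the control. KLF4 had 206.3, 1047.0 and 720.4, and TFAP2A 16.6, 151.4 and 88.0, both lowest with SETD8 siRNA 1. GRHL1 had 78.6, 80.1 and 49.3. The list medians were -0.54 with SETD8 siRNA 1 and 0.73 with SETD8 siRNA 2.

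Epithelial cell markers were mostly near background. Of 14, 13 were on the array and 5 passed the filter. The adhesion gene CDH1 had a signal of 23.4 with SETD8 siRNA 1, 17.7 with SETD8 siRNA 2 and 18.1 with the control, and the splicing regulator ESRP1 had 1.8, 6.3 and 1.7. EPCAM had 49.1, 194.2 and 157.1, so it was lowest where EHF was highest. The summed signal of the 5 markers was 3473.1 with SETD8 siRNA 1, 6751.6 with SETD8 siRNA 2 and 3643.5 with the control, most of it from KRT18. EPCAM was the 1 marker at least 2-fold below the control with SETD8 siRNA 1, beside 7.75% of all genes. KRT8 and KRT18 were the 2 at least 2-fold above the control with SETD8 siRNA 2, beside 4.46%. These EPCAM, KRT8 and KRT18 changes lay within the yardstick, which was 2.21 for EPCAM and KRT8 and 1.14 for KRT18. The 10 fibroblast markers summed to 154650.8, 170610.4 and 162090.7, with medians of 0.06 and 0.04. COL1A1 had the highest signal of the SETD8 siRNA 1 array (36638.9) and of the control array (33451.1). Signals near the top of the range may be compressed, which would hide changes. The matrix proteoglycan DCN was the 1 fibroblast marker past 2-fold, lower with SETD8 siRNA 1, beside 7.75% of all genes. It had 7745.9 with SETD8 siRNA 1, 22971.2 with SETD8 siRNA 2 and 20075.4 with the control (-1.37 and 0.19). Endothelial markers CDH5, TIE1 and ESAM lay under the floor on all 3 arrays, and 3 of 9 were compared. Of these, 2 were at least 2-fold higher with SETD8 siRNA 1, where EHF was highest, beside 5.48% of all genes. They were PECAM1 at 135.0, 52.7 and 49.0 (1.46 and 0.11) and VWF at 130.5, 80.9 and 59.7 (1.13 and 0.44), both within the yardstick of 2.21. The sums of the 3 were 1540.3, 2166.7 and 1360.0, most of it from TEK at 1274.8, 2033.1 and 1251.3. Their median was 1.13 with SETD8 siRNA 1 and turned to -0.10 when probe sets were averaged. Of 8 leukocyte markers, 6 were on the array and 3 were compared, with sums of 213.4, 181.1 and 228.5. CD79A was the 1 of these past 2-fold, lower with SETD8 siRNA 2, beside 6.65% of all genes. It had 94.0, 66.6 and 138.8 (-0.56 and -1.06), within the yardstick of 2.21. The part of other cell types in the EHF signal was not tested.

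ERK pathway output genes, which the PEA3 factors accompany in many cells, lay above the control with SETD8 siRNA 1 for 15 of 16 genes, beside 48.4% of all genes. Of the 16, all compared, SETD8 siRNA 1 had 10 above the control by 2-fold or more and 1 below it by as much, and SETD8 siRNA 2 had 3 and 0. Over all genes these shares were 5.48% and 7.75% with SETD8 siRNA 1, and 4.46% and 6.65% with SETD8 siRNA 2. The list medians were 1.27 and 0.27. At least 2-fold higher with both were DUSP4 (4.90 and 2.29), the FGF feedback inhibitor SPRY4 (2.06 and 1.54) and SPRY2 (1.39 and 1.01). The SPRY2 change with SETD8 siRNA 2 was within its yardstick of 1.14. DUSP6, the ERK phosphatase, had a signal of 18716.6 with SETD8 siRNA 1, 8209.0 with SETD8 siRNA 2 and 4633.1 with the control (2.01 and 0.83). With SETD8 siRNA 2, DUSP6 was under 2-fold and within its yardstick of 1.14. With SETD8 siRNA 2, 12 of the 16 lay above the control, beside 48.9% of all genes. The rest lay below it with SETD8 siRNA 2: LIF (2.07 and -0.96), SPRY1 (1.59 and -0.25), IER3 (2.35 and -0.24) and PHLDA1 (1.02 and -0.16). FOSL1 had 311.5, 695.0 and 680.3, the 1 lower gene with SETD8 siRNA 1.

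Targets of SRF and its ternary complex factors, the group of ELK1, ELK3 and ELK4, had medians of 0.83 and 0.46 over 9 genes compared of 12. With SETD8 siRNA 1, 4 were at least 2-fold higher, beside 5.48% of all genes, and with SETD8 siRNA 2, 1 was, beside 4.46%, the immediate early gene EGR3 (4.86 and 2.24). JUNB had 1.25 and 0.90, the survival gene MCL1 1.22 and 0.51, and IER2 0.83 and 0.39. The ternary complex factors themselves differed from the control by under 1.5-fold on their brightest probe sets.

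Proteases and inhibitors known as joint targets of ETS factors and AP-1 were all above the control with SETD8 siRNA 1, 9 of 9 compared, beside 48.4% of all genes, and 3 of them by 2-fold, beside 5.48%. With SETD8 siRNA 2, 5 were above, beside 48.9% of all genes. By 2-fold, 1 was higher and 2 were lower with SETD8 siRNA 2, beside 4.46% and 6.65%. The medians were 0.91 and 0.09. The stromelysin MMP3 had a signal of 20538.7 with SETD8 siRNA 1, 1322.3 with SETD8 siRNA 2 and 1416.8 with the control. The collagenase MMP1 had 33063.8, 4444.1 and 17604.0, near the top of the array's range with SETD8 siRNA 1, where signals may be compressed. PLAUR, the urokinase receptor, had 5686.1, 6555.5 and 2853.8 (0.99 and 1.20), which was past 2-fold and the yardstick of 1.14 with SETD8 siRNA 2 only.

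Interleukin 1 is known to induce ELF3 through NF-kappaB in several cell types. The list of interleukin 1 and NF-kappaB targets was far above the control with SETD8 siRNA 1. All 13 genes compared were at least 2-fold higher there, beside 5.48% of all genes, with a median of 6.25. Of these, CCL20 and CXCL2 passed the filter only through their signal with SETD8 siRNA 1, so they had to differ there. With SETD8 siRNA 2 the median was -0.05, with 2 higher and 2 lower, beside 4.46% and 6.65% of all genes. CCL20, a chemokine, had a signal of 4561.0 with SETD8 siRNA 1, 8.3 with SETD8 siRNA 2 and 1.3 with the control, and CXCL2 had 7577.2, 17.8 and 22.8. The list was uneven with SETD8 siRNA 2: these 2 genes had signals under 42.0, while IL6 had 1193.0 and CXCL8 had 4185.5. NFKBIZ (3.77 and 1.45) and CXCL8 (4.12 and 1.23) were higher with both. ELF3 stayed dim on the array where this list was high. A link of this list to EHF or ELF3 was not tested.

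**Figure D3:**
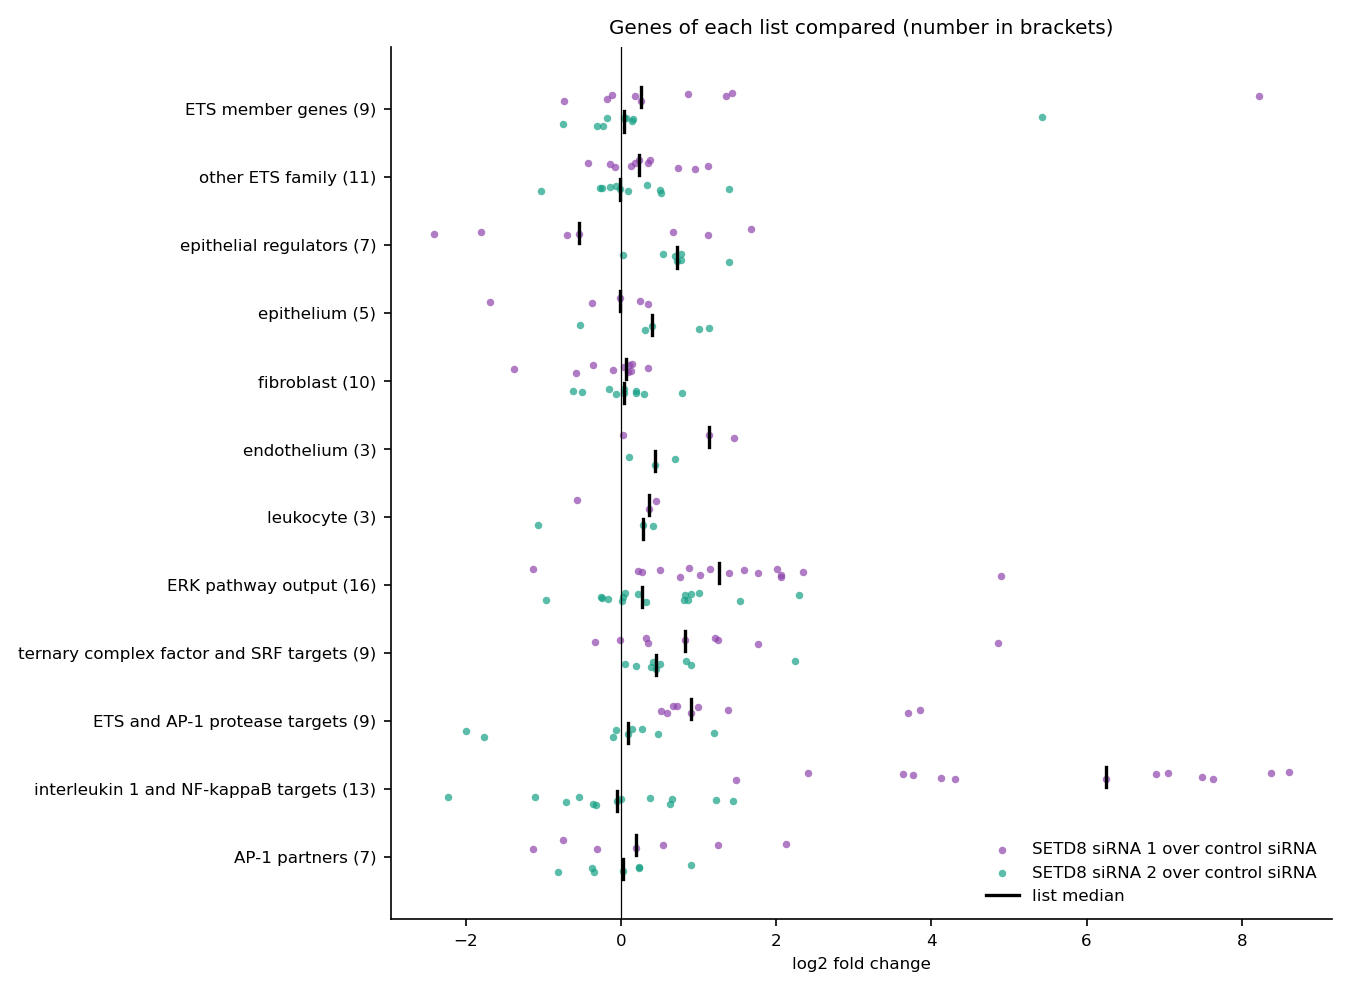
Log2 fold change over the control siRNA of each gene compared, by list, with SETD8 siRNA 1 above SETD8 siRNA 2 in each row and a bar at the list median. Vertical scatter within a row has no meaning. The ETS members have medians of 0.26 and 0.04, with EHF far to the right, while the interleukin 1 and NF-kappaB targets centre at 6.25 with SETD8 siRNA 1 and -0.05 with SETD8 siRNA 2.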

How the data were processed

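The 3 IMR-90 cultures, 1 per siRNA, were measured on Affymetrix arrays with a single colour. Each deposited intensity is a linear MAS5 signal of 1 probe set, according to the submitters' processing notes. The MAS5 version was not given in the sources used here. Without the extreme 2% at either end, mean signals were 497.2 to 497.3, so arrays were used as scaled by the authors. That scaling would conceal a change common to every gene. No detection calls entered the calculations, so low signals may be background.

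GEO's platform annotation named the probe sets, and RefSeq symbols replaced its own by gene number for 41037 of 41091. Left out were 1801 probe sets with several symbols and 11721 not listed. With 1 array per siRNA no test was run, and genes were counted by a fixed 2-fold rule. The members, lists and rules were chosen with earlier results of these data known. The rule named KMT5A, the members, the ETS family, the 5 genes nearest to EHF and to ELF3, and up to 4 genes per list with the largest shared change. CCL20, CDH1, CDH5, CXCL2, DCN, EPCAM, ESAM, ESRP1, FOS, FOSB, FOSL1, IER3, JUN, KLF4, KRT18, LIF, MMP1, MMP3, PHLDA1, SPRY1, TFAP2A and TIE1 were named after their values were seen. The alternatives tried were scaling to the median, quantile normalization, adding 16 to each signal, dropping the filter or raising it to the 75th percentile, averaging probe sets, excluding those with suffixes that mark shared sequence, and counting at 1.5-fold or 3-fold. Python 3.11.15, numpy 2.4.6, pandas 2.3.3 and matplotlib 3.10.9 were used.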

Additional observations from a re-analysis of the deposited data

Results flagged for a closer look

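Among the 9 ETS members compared, 3 had log2 fold changes of opposite sign with the 2 SETD8 siRNAs. ETV4 stood at 1.36 for SETD8 siRNA 1 and at -0.75 for SETD8 siRNA 2, ETS2 had 0.87 and -0.23, and ETV5 had -0.11 and 0.07. With 1 array per siRNA the difference was not tested. Opposite signs occurred for 34.9% of all genes compared, and the ETV5 values are near 0 with both siRNAs.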

How the results depend on the processing

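EHF was above the control with both SETD8 siRNAs under each alternative run, at sizes that varied. With the pseudocount of 16 its log2 fold changes were 7.12 and 4.36, and with the mean of its probe sets 3.35 and 1.15. That mean also gave ETS1 -0.38 with SETD8 siRNA 2, and ETS2 0.41 and ETV1 1.05 with SETD8 siRNA 1. The other 91 member values moved by less than the median difference between the SETD8 siRNA arrays for genes of like signal. The count of members higher with both siRNAs was 0 with the filter at the 75th percentile and with probe sets averaged, since EHF then missed the filter. The count of other ETS genes higher with both was 0 with the pseudocount, the filter at the 75th percentile, probe sets averaged, shared probe sets left out, or a 3-fold threshold. The median of the 3 endothelial markers with SETD8 siRNA 1 was 1.13 and turned to -0.10 with probe sets averaged, where the cause was not tested. Signs for ETS1 and ETV5 with SETD8 siRNA 2 changed with the setting, over ranges of -0.38 to 0.08 and -0.22 to 0.11. No paired analysis was possible because each group held 1 sample. Low signal limits what can be said of ELF3, ETV4, SPDEF and the control level of EHF.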

Other observations

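AP-1 subunits, which often bind beside ETS factors, differed among themselves. Of 10 genes, 7 were compared, and their medians were 0.19 with SETD8 siRNA 1 and 0.03 with SETD8 siRNA 2. ATF3, a stress-induced member, had a signal of 2482.1 with SETD8 siRNA 1, 665.9 with SETD8 siRNA 2 and 566.2 with the control (2.13 and 0.23). FOSL2 had 678.8, 900.7 and 1141.1, lower with both siRNAs (-0.75 and -0.34), and BATF3 had 391.9, 274.8 and 481.3 (-0.30 and -0.81). JUN had 0.19 and 0.23. FOS and FOSB had mean signals too low to be compared, with FOS at 214.6, 11.3 and 13.1 and FOSB at 106.2, 57.8 and 5.8 on the same arrays.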
